A study of Homo sapiens with 24 samples.

Results

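RPRD1B_FL, a line of Flp-In T-REx 293 cells, was compared with the parent line FLP while neither had received tetracycline. The comparison rests on 4 of the 24 samples of the series, the 2 titled RPRD1B_FL and the 2 titled FLP. It describes how the line differed from its parent before its inserted gene was induced. Flp-In T-REx 293 cells derive from the human embryonic kidney line 293 and carry a landing site for one inserted gene that tetracycline switches on, so both groups share that genetic background and their medium. The labels mark both groups as untreated. They do not say what FL stands for, or whether the line grew from 1 clone or from a pool. Nor do they say whether the 2 samples of a group came from separate cultures, so p-values measure only the spread between samples of a group, which may be technical. The same lines given tetracycline for 48 h, FLP_TET and RPRD1B_FL_TET with 2 samples each, hold no library of the untreated comparison, and their values are given beside it. All 8 libraries were fitted together, so both comparisons share 1 estimate of the spread. For some genes a level in HEK293T cells is also given, from 2 other samples of the series treated with control siRNA for 48 h. These are another cell line under another treatment. They were left out of the fit, and no difference from them was tested. Messenger RNA was measured as counts of reads at the 3′ ends of polyadenylated transcripts.

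RPRD1B, also known as CREPT, and its relatives RPRD1A and RPRD2 bind the phosphorylated tail of the largest subunit of RNA polymerase II, and RPRD1B is known for raising the transcription of cell cycle genes. Cells of the 293 family are transformed cells that express epithelial, kidney and neuronal genes side by side. Their chromosome numbers are far from diploid and differ between sublines.

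Total counts in genes lay between 2635133 and 3531106 in the 4 libraries, and 3 counts, taken as the floor of detection, were worth 0.832 to 1.11 CPM (counts relative to library sizes scaled by the TMM method). The 2 libraries of a group differed beyond sampling noise, with a chi-square per degree of freedom of 4.94 in FLP and 2.997 in RPRD1B_FL. FLP 1 and RPRD1B_FL_TET 1 stood apart at the opposite ends of the first principal component of the 8 Flp-In libraries (-40.2 and 36.0, the others from -17.8 to 11.2), which held 35.6% of their variance. The nuclear RNA MALAT1 was at 1364 CPM in FLP 1 against 540 in FLP 2, 343 in RPRD1B_FL 1 and 436 in RPRD1B_FL 2. The rank correlation across genes between a library's deviation and the GC content of transcripts was -0.49 and -0.29 in FLP and 0.15 and -0.43 in RPRD1B_FL. The part of these differences in the results below was not tested beyond the fits without each library and with a correction for GC content. All 37 mitochondrially encoded gene names were listed at 0 counts in these libraries.

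The RPRD genes themselves were close in the 2 lines before induction. RPRD1B was at 34.6 and 34.1 CPM in FLP and at 43.2 and 43.8 CPM in RPRD1B_FL. The line's libraries were both the higher ones, and the log2 fold change of 0.34 (SE 0.19) was not called (adjusted p = 0.468, edgeR's quasi-likelihood test over all genes). With tetracycline the same contrast was 1.34 and was called (adjusted p = 0.000322). RPRD1A was at 61.6 and 47.4 CPM in FLP against 45.6 and 44.2 CPM (log2 fold change -0.27, adjusted p = 0.557 in the same test). With tetracycline RPRD1A was called lower, at 55.5 and 52.1 CPM in FLP_TET against 25.4 and 24.4 CPM (-1.11, adjusted p = 0.00463). RPRD2 was at 62.3 and 60.7 against 59.3 and 60.4 CPM (-0.04, adjusted p = 0.944). Reads of an inserted RPRD1B are counted under that name only where they fall in the annotation used, so the counts cannot tell the inserted from the native gene.

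Before induction the line already differed from its parent in 141 of 11948 genes tested, 1.18% of them, at a Benjamini-Hochberg adjusted p under 0.05 in edgeR's quasi-likelihood test. Most were lower in the line: 114 genes (0.954% of all tested) were called lower and 27 (0.226%) higher. Of the lower ones, 69 were at least halved and 14 were lower by at least 2 on the log2 scale, with a median log2 fold change of -1.09. Of the higher ones, 11 were at least doubled and 3 were higher by at least 2, with a median of 0.90. In every one of the 141 genes the 2 libraries of the line lay on the same side of both parent libraries, as they did in 44.3% of all genes tested.

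The counts depended on the libraries. Without FLP 1 the test called 48 genes, without RPRD1B_FL 1 it called 40, without RPRD1B_FL 2 it called 76, and without FLP 2 it called 240. Of the 141 genes, 47, 39, 65 and 105 were called again in those fits, in this order. A correction for GC content gave 302 called genes, 94 higher and 208 lower, with all 141 among them. No called gene changed sign in any alternative run. At an unadjusted p under 0.05 there were 1586 genes.

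The differences had the same direction with tetracycline. All 141 genes had the same sign in RPRD1B_FL_TET against FLP_TET, where 133 genes were called (1.11%), 27 higher and 106 lower (0.887% of all tested), and 69 genes were called in both comparisons (48.9% of the first list and 51.9% of the second). For the 114 lower genes the median was -1.09 in untreated and -0.80 in treated lines on the log2 scale, and for the 27 higher genes 0.90 and 0.61. The untreated libraries chose these genes, so smaller medians in the treated libraries cannot be read as a smaller difference between the lines. Some called genes were close to the parent with tetracycline, such as ANKRD12, which encodes an ankyrin repeat protein (-1.31 without and -0.19 with it). The difference between both contrasts was tested as an interaction, and no gene was called in it (0 by edgeR, 0 by DESeq2, with 477 genes, 3.99%, at an unadjusted p under 0.05 in edgeR and 175 in DESeq2). Of the 141 called genes, 27 were among those 477, and the same untreated libraries chose the 141 and enter the interaction. Without FLP 2 that test called 5 genes.

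**Figure D1:**
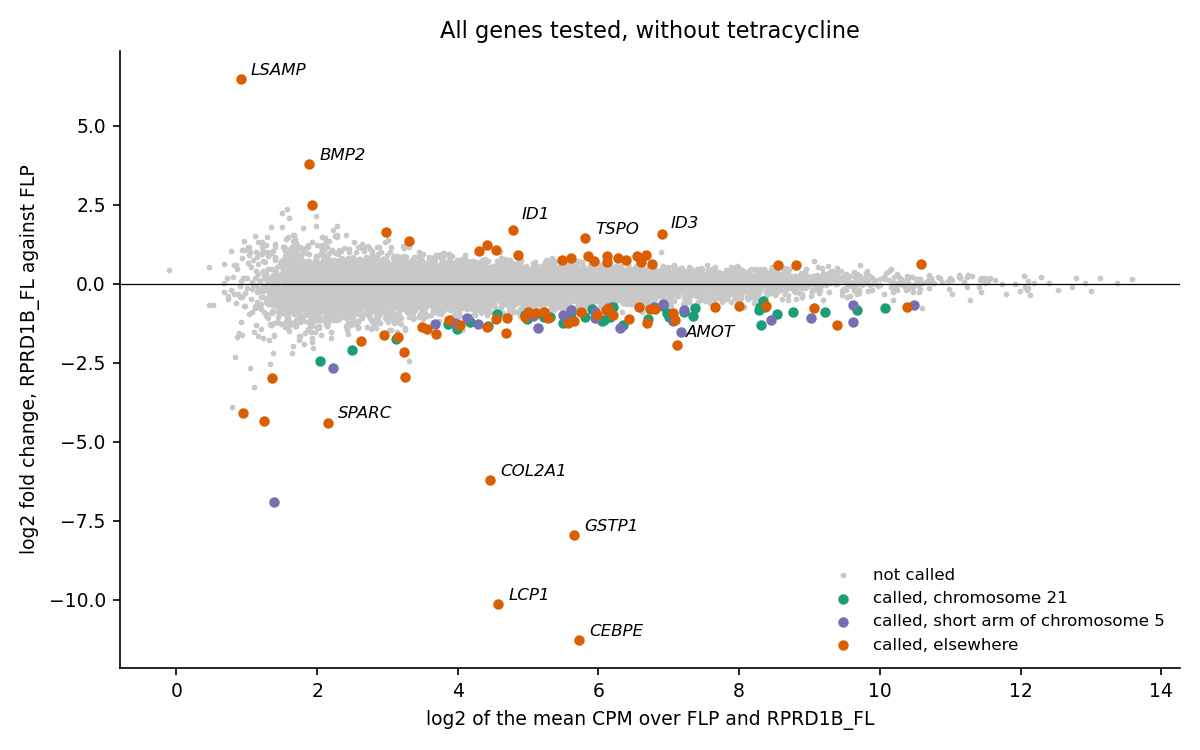
Log2 fold change of each of the 11948 genes tested (vertical axis, RPRD1B_FL against FLP) by the log2 of its mean CPM over both groups (horizontal axis). The 42 called genes of chromosome 21 and the 24 of the short arm of chromosome 5 all lie below 0, and CEBPE, LCP1, GSTP1 and COL2A1 lie far below all other genes of their abundance.

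Among called genes at 10 CPM or more in the parent, the widest differences were in 4 with at most 3 counts in each library of the line. They are CEBPE, GSTP1, LCP1 and COL2A1. They lie on 4 different chromosomes and belong to no common pathway: CEBPE encodes a transcription factor of the C/EBP family that drives the last steps of granulocyte maturation, GSTP1 a glutathione transferase that conjugates electrophiles, LCP1 the actin-bundling protein L-plastin of blood cells, and COL2A1 the collagen of cartilage. The sequence before the RefSeq start is shown for 3 of them to give the density of CG pairs, at which DNA can be methylated. Each line holds the 250 bases before the start in RefSeq (GRCh38.p14), 5′ to 3′ along the gene, with every CG in capitals. RefSeq and GENCODE do not give the same outermost start for these genes: the CEBPE and LCP1 windows lie inside the GENCODE 29 gene bounds given below, and most of the GSTP1 window does. Which start these cells use was not measured, so each window describes the sequence before the RefSeq start alone.

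CEBPE, chr14:23119256-23119505, minus strand: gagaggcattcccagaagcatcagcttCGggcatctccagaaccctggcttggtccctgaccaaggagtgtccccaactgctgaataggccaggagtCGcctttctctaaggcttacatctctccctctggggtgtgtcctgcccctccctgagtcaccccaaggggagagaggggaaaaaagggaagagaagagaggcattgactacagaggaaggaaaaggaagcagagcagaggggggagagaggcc

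GSTP1, chr11:67583562-67583811, plus strand: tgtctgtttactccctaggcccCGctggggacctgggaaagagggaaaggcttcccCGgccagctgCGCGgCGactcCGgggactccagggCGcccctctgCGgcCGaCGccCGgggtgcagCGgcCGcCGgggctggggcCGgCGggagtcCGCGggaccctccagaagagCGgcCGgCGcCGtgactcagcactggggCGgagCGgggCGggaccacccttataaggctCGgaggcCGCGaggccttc

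LCP1, chr13:46182178-46182427, minus strand: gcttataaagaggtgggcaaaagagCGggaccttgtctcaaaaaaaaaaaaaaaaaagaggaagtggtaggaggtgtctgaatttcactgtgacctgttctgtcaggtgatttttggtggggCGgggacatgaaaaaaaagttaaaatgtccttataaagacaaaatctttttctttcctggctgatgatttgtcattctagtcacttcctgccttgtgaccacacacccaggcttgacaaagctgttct

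CEBPE and LCP1 have 2 CG pairs each in this window, and 98.5% of the 8949 tested genes with a RefSeq promoter have as many or more. GSTP1 has 28, which 29.1% of them reach. The median number of CG pairs was 24 for the 78 genes called lower that have an entry, 22 for the 23 called higher and 22 for all tested genes with one. Methylation was not measured in these files.

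CEBPE (chr14:23117304-23119616, GRCh38, GENCODE 29) was at 114 and 96.8 CPM in the parent libraries and had 0 counts in both libraries of the line, against 312 and 349 counts in the parent. The groups did not overlap, and CEBPE was at least 95.2-fold lower in the line, taking 3 counts per library as the floor (adjusted p = 2.12e-11, edgeR's quasi-likelihood test). In bulk RNA, fewer expressing cells and less RNA per cell cannot be told apart. With tetracycline CEBPE was at 82.0 and 97.9 CPM in FLP_TET and again had 0 counts in both RPRD1B_FL_TET libraries, at least 70.1-fold lower. The other 6 genes of the C/EBP list, CEBPA, CEBPB, CEBPD, CEBPG, CEBPZ and DDIT3, were all tested and none was called. CEBPA was at 130 and 138 CPM in the parent and 183 and 138 CPM in the line. HEK293T cells treated with control siRNA had 0 CEBPE counts in both libraries.

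GSTP1 (chr11:67583595-67586656) was at 101 and 98.7 CPM in FLP, and had 0 counts in RPRD1B_FL 1 and 2 counts in RPRD1B_FL 2, against 634 in both parent libraries together. The ratio of the summed counts was 278, with a 95% counting interval from 76.6 to 2298 (adjusted p = 8.28e-12, edgeR). With tetracycline the ratio was 145 (62.0 to 448), again with the line low in both libraries. Of the 10 glutathione transferase genes tested, GSTP1 was the only one called. GSTA4, which conjugates products of lipid peroxidation, was at 16 and 15.8 CPM in the parent and at 9.13 and 11.1 CPM in the line (adjusted p = 0.32), and GSTO1, the most abundant, at 366 and 401 CPM against 466 and 379. HEK293T cells with control siRNA had GSTP1 at 2367 and 1636 CPM, on library sizes scaled together with the Flp-In libraries, far above either Flp-In line.

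LCP1 (chr13:46125920-46211871) was at 55.8 and 39.7 CPM in the parent and at 0 counts in both libraries of the line, at least 43.2-fold lower (adjusted p = 2.53e-08, edgeR). With tetracycline RPRD1B_FL_TET 2 held all 4 counts of the line, and the ratio was 57.1 (95% counting interval 22.1 to 211). Its nearest relatives PLS3 and PLS1, plastins of solid tissues, were not called: PLS3 was at 129 and 101 CPM against 89.2 and 96.9, and PLS1 at 20.8 and 19.7 against 16.5 and 16.9. LCP1 was 1 of 8 actin-bundling genes tested and the only one called.

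COL2A1 (chr12:47972965-48004554) was at 40.5 and 46.0 CPM in the parent and at 0.351 and 0.737 CPM in the line, which are 1 and 2 counts. The ratio of the summed counts was 80.9, with a 95% counting interval from 27.4 to 395 (adjusted p = 9.12e-10, edgeR). With tetracycline it was 62.0 (23.97 to 229). HEK293T cells with control siRNA had COL2A1 at 14.4 and 24.9 CPM. CEBPE, GSTP1, LCP1 and COL2A1 were called in each of the 14 alternatives run, leaving out any 1 of the 4 libraries included.

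In the other direction the level asked for was lower, a mean of 5 CPM or more in the line. With at most 3 counts in each parent library, 1 gene met this rule. It is BMP2 (chr20:6767664-6780280), a secreted ligand of the bone morphogenetic protein family. BMP2 was at 0 and 0.832 CPM in the parent (0 and 3 counts) and at 8.78 and 5.16 CPM in the line (25 and 14 counts). Its mean of 6.97 CPM in the line is under the 10 CPM asked of the genes switched off. The ratio was 14.8 with a 95% counting interval from 4.72 to 75.1 (adjusted p = 0.00497, edgeR). With tetracycline it was 52.3 (8.87 to 2114). The call was lost without RPRD1B_FL 1 (adjusted p = 0.109) and without FLP 1, and DESeq2's filter on low counts gave it no adjusted p.

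Genes of lower abundance, chosen after their values were seen, showed the same kind of difference. SPARC, a matricellular glycoprotein, was at 9.84 and 7.21 CPM in the parent and had 1 count in each library of the line (ratio 23.2, 95% counting interval 6.12 to 197, adjusted p = 0.000669 in edgeR). It had 0 counts in both RPRD1B_FL_TET libraries, and it was called in all 12 alternatives that gave it a value. SALL3, a zinc finger transcription factor, had 28 counts in the parent and 1 in the line (5.47 and 3.60 against 0 and 0.368 CPM, ratio 24.5, 95% counting interval 4.06 to 1003). PLIN2, a coat protein of lipid droplets, had 24 counts in the parent and 1 in the line (2.92 and 4.44 against 0 and 0.368 CPM, ratio 21.03, 3.43 to 865). LINC02226, a long noncoding RNA of the short arm of chromosome 5, was at 6.56 and 3.88 CPM in the parent. It had 0 counts in all libraries of the line, treated ones included. Without tetracycline it was at least 4.725-fold lower (adjusted p = 0.00708, edgeR), and the other-strand gene MIR4458HG overlaps it. LSAMP, an adhesion molecule of the immunoglobulin superfamily, had 0 counts in both parent libraries and stood at 4.21 and 3.32 CPM in the line, at least 3.44-fold higher (adjusted p = 0.00456, edgeR). SLC16A7, a transporter of lactate and pyruvate, was at 1.46 and 0.832 CPM in the parent and 7.37 and 5.53 CPM in the line. When 1 library was left out, the calls of SALL3, PLIN2, LSAMP and SLC16A7 were lost in 3, 4, 2 and 4 of the 4 fits, the largest adjusted p being 0.237, 0.367, 0.0633 and 0.261, each without RPRD1B_FL 1.

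**Figure D2:**
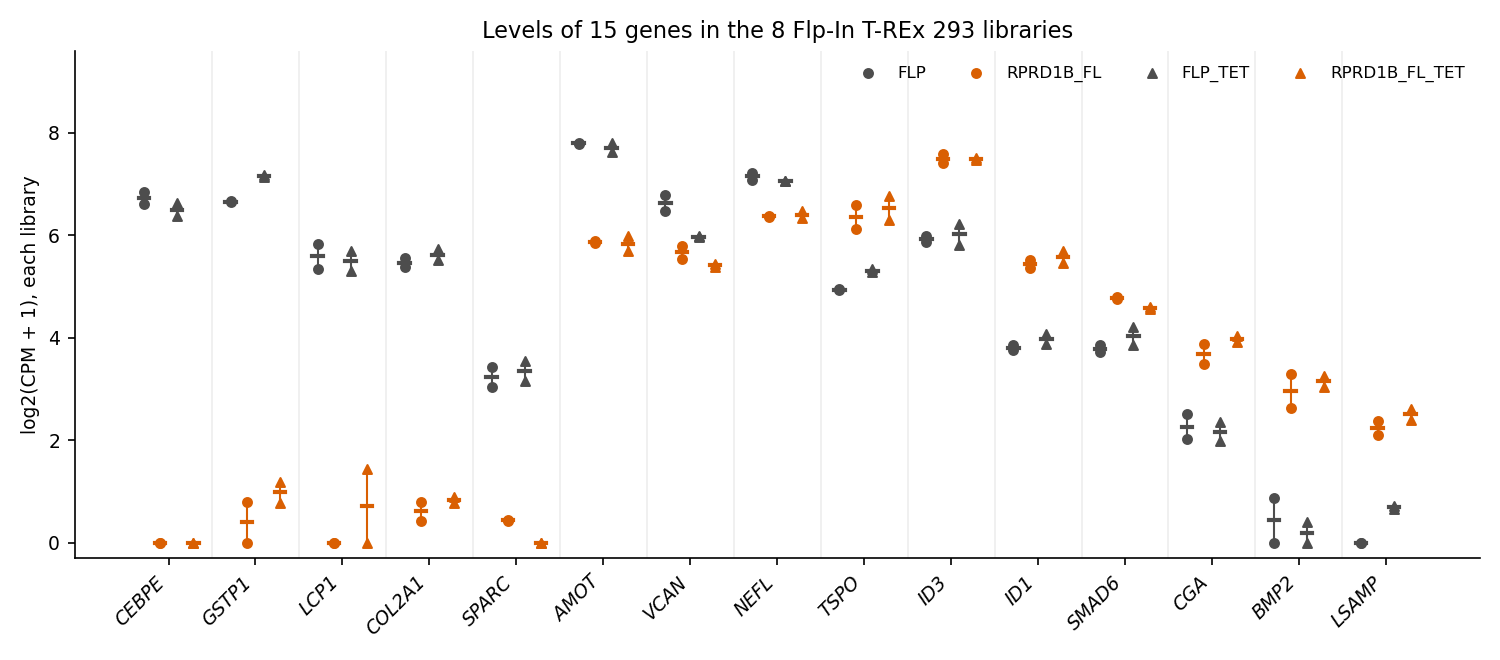
Levels of 15 genes as log2(CPM + 1) in each of the 8 libraries, with circles for untreated and triangles for tetracycline-treated libraries, grey for the parent and orange for the line, and a bar at each group's mean. For CEBPE, GSTP1, LCP1, COL2A1 and SPARC every library of the line lies near 0 and every parent library well above it, and BMP2 and LSAMP show the reverse.

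The genes that were higher in the line included the ID genes. BMP ligands bind receptor kinases that phosphorylate SMAD1, SMAD5 and SMAD9, and the ID genes and the inhibitory SMAD6 and SMAD7 are well known direct targets of those SMADs. Of the 29 genes of this pathway tested, 4 were called higher and 0 lower, against 0.226% called higher among all genes, while the median log2 fold change of the list was 0.02 and that of all genes 0.01. The 4 are the ligand BMP2, described above, and the targets ID1, ID3 and SMAD6. The list was chosen with earlier results of these data known, so its share of called genes is only a description.

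ID3, an inhibitor of helix-loop-helix transcription factors, was at 57.2 and 62.4 CPM in the parent and at 190 and 169 CPM in the line. Its groups lay far apart, the log2 fold change being 1.58 (SE 0.17, adjusted p = 6.57e-06, edgeR) and of 1.47 with tetracycline. ID1, which acts in the same way, was at 13.5 and 12.5 CPM against 44.6 and 40.2 CPM, higher by 1.71 on the log2 scale (SE 0.22, adjusted p = 0.000104), and 1.66 with tetracycline. ID1 and ID3 were called in each of the 14 alternatives run. ID2 had 29.9 and 35.8 CPM against 53 and 57.9 CPM without passing the test (0.75, adjusted p = 0.068), and ID4 had 71.5 and 56.6 against 48.8 and 51.2 CPM (-0.35, adjusted p = 0.45). The members of the ID family thus did not all lie on one side of the parent.

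SMAD6 was at 13.5 and 12.2 CPM in the parent and 26 and 26.9 CPM in the line, higher by 1.04 on the log2 scale (SE 0.24, adjusted p = 0.0261, edgeR). It was not called by DESeq2 (adjusted p = 0.103) or in any of the 4 fits with 1 library left out (largest adjusted p = 0.142, without RPRD1B_FL 1), and with tetracycline its log2 fold change of 0.57 was not called. The signal-carrying SMAD1 (12.8 and 8.87 against 11.9 and 14 CPM), SMAD5 and SMAD9, the type I receptors BMPR1A and BMPR1B, and the ligands BMP4, BMP6 and BMP7 were not called in either direction.

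The other genes at least doubled in the line were scattered in function. TSPO, a cholesterol-binding protein of the outer mitochondrial membrane, was at 29.5 and 29.9 CPM in the parent and 94.8 and 68.9 CPM in the line (log2 fold change 1.46, SE 0.21, adjusted p = 0.00029, edgeR). It was at 38.1 and 39.4 against 108 and 77.4 CPM with tetracycline and was called in every alternative run. CGA, the alpha subunit shared by the glycoprotein hormones, was at 4.74 and 3.05 CPM against 10.2 and 13.6 CPM (1.63, adjusted p = 0.0208), and with tetracycline at a log2 fold change of 2.06. DIO3, which inactivates thyroid hormone, was at 5.47 and 5.55 against 13 and 15.5 CPM (1.36, adjusted p = 0.0296). Its contrast with tetracycline was only 0.23. GPM6A, a neuronal membrane glycoprotein, was at 13.5 and 12.2 against 23.5 and 36.5 CPM, and RYR2, a calcium release channel, at 14.6 and 15.5 against 25.3 and 37.95 CPM. CGA, DIO3 and RYR2 were not called by DESeq2 (adjusted p = 0.0954, 0.175 and 0.0928). With 1 library left out, CGA, GPM6A and RYR2 each lost their call in 3 of 4 fits (largest adjusted p = 0.175, 0.215 and 0.306, without RPRD1B_FL 2) and DIO3 in all 4 (0.19, without FLP 1).

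Genes of adhesion and of the extracellular matrix were examined in 10 lists, chosen with earlier results of these data known. Together they hold 373 gene names, of which 145 were tested. Of these, 4 were called lower (2.76%, against 0.954% of all genes tested) and 0 higher, and 65.5% had a negative log2 fold change, against 49.1% of all genes. Their median was -0.15 without and -0.19 with tetracycline. The 4 called genes all encode matrix proteins: COL2A1, SPARC, VCAN and COL6A1. No gene of a cell surface adhesion receptor in these lists was called. The lists do not hold every adhesion gene: LSAMP, an adhesion molecule called higher, and AMOT, a junction scaffold called lower, are in none of them. CTGF, a matricellular growth factor chosen after its values were seen, was on the other side of the parent without being called (0.365 and 1.39 against 4.21 and 5.89 CPM, 2.37, adjusted p = 0.0902).

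VCAN, the large proteoglycan versican, was at 109 and 87.9 CPM in the parent and 45.6 and 54.2 CPM in the line (log2 fold change -0.98, SE 0.18, adjusted p = 0.00396, edgeR). Its call was lost without RPRD1B_FL 1 (adjusted p = 0.131) and without FLP 1. COL6A1, a chain of the microfibrillar collagen VI, was at 37.9 and 48.8 CPM against 20.01 and 20.3 CPM (-1.11, adjusted p = 0.00784), and it lies on chromosome 21, most of whose genes were lower in the line. Its call was lost in 3 of the 4 fits with 1 library left out (largest adjusted p = 0.111, without RPRD1B_FL 1). Its neighbour COL6A2 was at 0.729 and 3.05 against 1.40 and 1.47 CPM. Of the 18 collagen genes tested, COL2A1 and COL6A1 were called and 12 were on the negative side. Fibronectin (FN1) was at 90.1 and 98.4 CPM in the parent and 91.6 and 96.5 CPM in the line.

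Cadherins, the calcium-dependent adhesion molecules of cell junctions, were on the low side without any passing the test before induction. All 7 tested had negative log2 fold changes, against 49.1% of all genes, with a median of -0.56. CDH4 was close to the parent (-0.04), and the libraries of CDH4 and of CDH24 overlapped between the lines. CDH2, the N-cadherin that is the most abundant of them, was at 230 and 204 CPM in the parent and 160 and 155 CPM in the line (-0.46, adjusted p = 0.15, edgeR). CDH1, the E-cadherin of epithelia, was at 30.6 and 25.5 against 16.5 and 14 CPM (-0.87, adjusted p = 0.091). With tetracycline the median of the cadherins was -0.22. There CDH23 was called lower (-1.90, adjusted p = 0.0132, edgeR), while CDH24 was at 0.68 without being called. The summed level of the cadherin list was 317 and 294 CPM in the parent and 228 and 213 CPM in the line. CDH2 alone makes up most of this sum. How far the regional shifts described below enter the cadherin values was not tested.

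None of the 10 integrins, 7 laminins, 4 protocadherins, 23 immunoglobulin-type adhesion molecules, 19 junction genes, 17 ephrins and Eph receptors or 23 semaphorins and plexins tested from the lists was called. Of the 7 members with the smallest p in these lists, 6 were on the negative side, ITGA2 (-0.65), LAMB1, PCDH9 (-0.17), DSC2 (-0.74), EPHB3 and SEMA3C, and CNTN1 was on the positive side. ITGA2 lies in the low stretch of chromosome 5 described below. DSC2 lies on chromosome 18, where 157 of 181 genes were negative. LAMB1 and SEMA3C lie on chromosome 7 and EPHB3 on chromosome 3. The PCDH9 libraries overlapped between the lines, and its log2 fold change ran from -0.50 to 0.11 with 1 library left out. The part of regional shifts in these values was not tested. LAMB1, the beta 1 chain of laminin, was at 108 and 70.2 CPM in the parent and 49.5 and 53.8 CPM in the line (-0.78, adjusted p = 0.0679). SEMA3C, a secreted guidance cue, was at 12 and 11.9 against 4.92 and 5.16 CPM (-1.24, adjusted p = 0.0902), and EPHB3, a receptor of ephrin B ligands, at 25.5 and 23.6 against 12.6 and 14.4 CPM (-0.86, adjusted p = 0.0928). CNTN1, a neuronal contactin, was higher in both libraries of the line, at 3.28 and 2.22 against 7.37 and 8.47 CPM (1.54, adjusted p = 0.115). The semaphorins and plexins had 19 of 23 members on the negative side, with a median of -0.17. Junction genes such as DSP (240 and 234 against 269 and 264 CPM) and JUP (218 and 266 against 236 and 208 CPM) were close in the lines.

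AMOT, angiomotin, a scaffold of tight junctions and actin that binds the transcriptional coactivator YAP, was the most significant of the lower genes that kept a sizeable level. AMOT (chrX:112774503-112840815) was at 219 and 223 CPM in the parent and 58.3 and 56.7 CPM in the line, which left 26% of the parent's level (log2 fold change -1.94, SE 0.16, adjusted p = 1.14e-07, edgeR). With tetracycline it was at 196 and 222 against 50.9 and 62.0 CPM. It was called in each of the 14 alternatives run. HEK293T cells with control siRNA had AMOT at 492 and 401 CPM.

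Lineage genes were mostly at like levels in both lines. None of the 31 HOX genes tested was called, with log2 fold changes from -0.42 to 0.92 and a median of -0.01. HOXA10 had the smallest p, at 202 and 202 CPM in the parent and 272 and 298 CPM in the line (0.50, adjusted p = 0.101, edgeR), and it overlaps HOXA9 and HOXA10-AS, so reads cannot all be assigned to it. None of the 11 kidney lineage genes tested was called. LHX1, a transcription factor of the early nephron, was at 11.7 and 11.9 against 5.62 and 6.63 CPM (-0.94, adjusted p = 0.169), and SALL1, another, at 56.9 and 51.3 against 69.9 and 62.3 CPM.

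Of the 14 neuronal genes tested 1 was called, NEFL, the light neurofilament chain, which is also the only one called of 12 intermediate filament genes. NEFL was at 148 and 135 CPM in the parent and 82.5 and 80.7 CPM in the line (log2 fold change -0.79, SE 0.16, adjusted p = 0.00832, edgeR). The call was lost in 3 of 4 fits with 1 library left out, with a largest adjusted p of 0.129 without RPRD1B_FL 1. NEFL overlaps the other-strand gene AC107373.2, and the strand setting of the counting is not given in the sources used here. UCHL1 and INA did not differ in this way: UCHL1 was at 652 and 697 against 831 and 728 CPM and INA, another neurofilament protein, at 15.3 and 15.5 against 15.4 and 16.6 CPM. The keratins KRT8 and KRT18 and the mesenchymal filament protein VIM (317 and 378 against 343 and 314 CPM) were not called either. The neuronal list is not complete, and CRMP1 and BEX1, neuronal genes outside it, were called lower. CRMP1 was at 29.9 and 31.9 against 14.7 and 9.21 CPM (-1.36, adjusted p = 0.00948, edgeR), with -1.32 with tetracycline. BEX1 was at 261 and 240 against 156 and 148 CPM (-0.72, adjusted p = 0.0134, edgeR), with -0.59 with tetracycline, where it was not called.

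CEBPE and LCP1 are best known from blood cells, so the other genes of that lineage were read beside them. Of 30 blood cell genes, 15 had 0 counts in both parent libraries, among them the defining myeloid genes SPI1, MPO, ELANE and CD14, and PTPRC had 1 count in FLP 1 and none elsewhere. Besides CEBPE and LCP1, GATA2 and RUNX1 alone were above 10 CPM in the parent, and neither was called (RUNX1 at 16.8 and 13.6 against 11.2 and 15.5 CPM). TAL1, a transcription factor of blood stem cells, had 14 and 10 counts in the parent and 2 and 0 in the line (5.10 and 2.77 against 0.702 and 0 CPM, adjusted p = 0.064, edgeR). Without CEBPE and LCP1 the summed level of the list was 42.3 and 38.5 CPM in the parent and 35.8 and 37.9 CPM in the line. Of the 2 endothelial and 9 fibroblast genes tested none was called.

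Genes of the interferon response and of antigen presentation were on the low side, with 16 of 19 negative and a median of -0.51 without and -0.37 with tetracycline. Only IFNAR1, a chain of the interferon alpha receptor that lies on chromosome 21, was called (66.7 and 40.5 against 23.9 and 27.3 CPM, log2 fold change -1.05, adjusted p = 0.0296, edgeR). Without FLP 1 its adjusted p was 0.57, and DESeq2 gave 0.0522. IFNAR2, IFNGR2 and IL10RB are also on chromosome 21. Away from it, BST2, an interferon-induced restriction factor, was at 28.8 and 28.6 against 17.9 and 12.9 CPM (adjusted p = 0.061). None of the 19 p53 response genes, 15 Notch genes, 12 Wnt feedback genes or 13 imprinted genes tested was called.

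**Figure D3:**
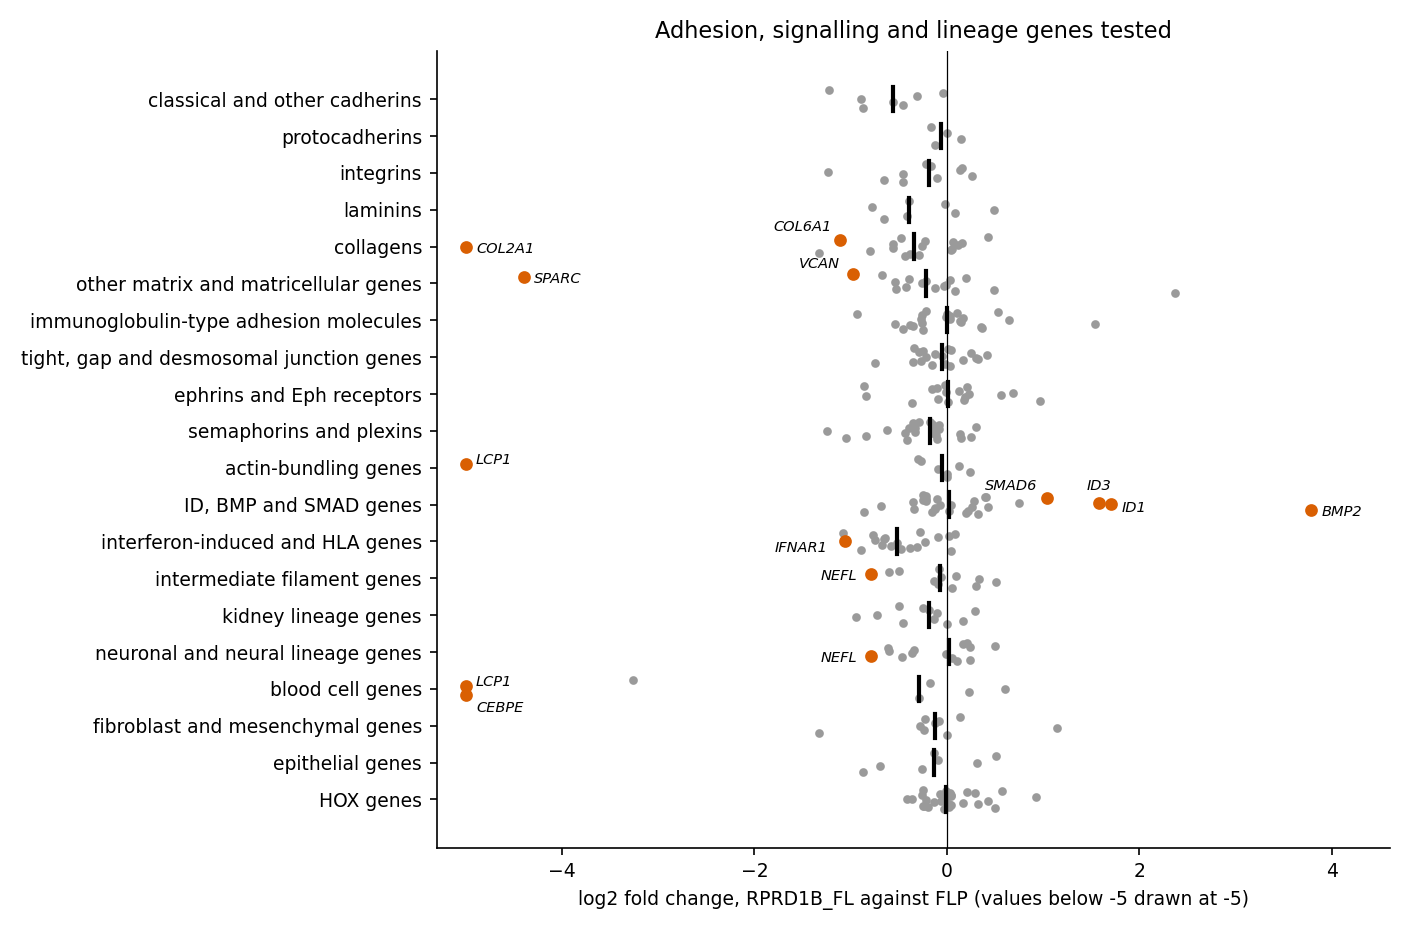
Log2 fold changes of the tested genes of 20 lists (RPRD1B_FL against FLP), with called genes in orange and named, all others in grey, and a black bar at each list's median. Called genes are few in each list, all but BMP2, ID1, ID3 and SMAD6 are on the negative side, and every cadherin lies below 0.

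The lower genes were concentrated on particular chromosomes. Chromosome 21 held 42 of the 114 called lower and the short arm of chromosome 5 another 24, which left 48 on all other chromosome arms, 23 of them also called with tetracycline. No gene on either of these was called higher. All 27 higher genes lay elsewhere.

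On chromosome 21, 110 genes were tested, 42 were called lower (38.2%, against 0.954% of all genes tested) and 105 had negative log2 fold changes. The median was -0.74 without and -0.70 with tetracycline, and the quartiles of the genes were at -0.98 and -0.52. As a median over these genes of log2(CPM + 1) relative to the parent's mean, RPRD1B_FL 1 stood at -0.71 and RPRD1B_FL 2 at -0.74, while the 2 parent libraries were at -0.01 and 0.01. In 93 of the 110 genes both libraries of the line lay below both of the parent, as they did in 21.7% of all genes tested. The 42 genes with a mean of 50 CPM or more were all negative and 27 of them were called, and of the 68 less abundant genes 15 were called and 63 were negative. Their medians were close, at -0.75 and -0.72.

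The 6 most abundant called genes of chromosome 21 span unrelated functions. ATP5O, a stalk subunit of the mitochondrial ATP synthase, was at 1391 and 1306 CPM in the parent and 773 and 826 CPM in the line. SOD1, the cytosolic superoxide dismutase, was at 1135 and 958 CPM against 591 and 587 CPM (log2 fold change -0.83, SE 0.14, adjusted p = 0.00252, edgeR). CCT8, a subunit of the TRiC chaperonin, was at 807 and 750 against 389 and 444 CPM. APP, the amyloid precursor protein, was at 567 and 419 against 251 and 253 CPM, and UBE2G2, a ubiquitin-conjugating enzyme, at 573 and 559 against 291 and 319 CPM. MCM3AP, a factor of messenger RNA export, was at 403 and 422 against 257 and 241 CPM, with the other-strand gene MCM3AP-AS1 overlapping it. Their log2 fold changes ran from -0.96 for APP to -0.73 for MCM3AP, and in each gene the groups did not overlap. Each of these 6 calls was lost in 1 or 2 of the 4 fits with 1 library left out, with largest adjusted p of 0.131 for ATP5O, 0.114 for CCT8 and 0.0934 for UBE2G2 without RPRD1B_FL 1, 0.0632 for SOD1 and 0.0605 for APP without FLP 1, and 0.136 for MCM3AP without RPRD1B_FL 2.

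Some genes of chromosome 21 departed further from the parent. BACH1, a heme-sensing transcriptional repressor, was at 14.9 and 11.9 CPM in the parent and 3.16 and 4.79 CPM in the line (-1.74, SE 0.35, adjusted p = 0.0103, edgeR), and its call was lost without RPRD1B_FL 1 (adjusted p = 0.212) and without FLP 1. HMGN1, a nucleosome-binding protein, was at 512 and 393 against 173 and 192 CPM (-1.31, adjusted p = 6.8e-05), a call kept in each of the 14 alternatives run, and its log2 fold change with tetracycline was -0.59. The 5 genes on the positive side were AP000692.2, FP565260.1, LINC01547, PRDM15 and USP25, none of them called and all under 25 CPM in both groups.

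TTC3, a ubiquitin ligase gene of chromosome 21, was at 132 and 99.5 CPM in the parent and 42.8 and 50.8 CPM in the line (-1.30, adjusted p = 0.00052, edgeR). A pseudogene of it on the X chromosome, TTC3P1, was also called lower (74.7 and 59.1 against 22.5 and 33.5 CPM, -1.25, adjusted p = 0.00723). Reads of near-identical copies can be split or shared in counting, so both values are uncertain. Leaving out 1 library took TTC3P1 to an adjusted p of 0.175 at most (without RPRD1B_FL 1).

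**Figure D4:**
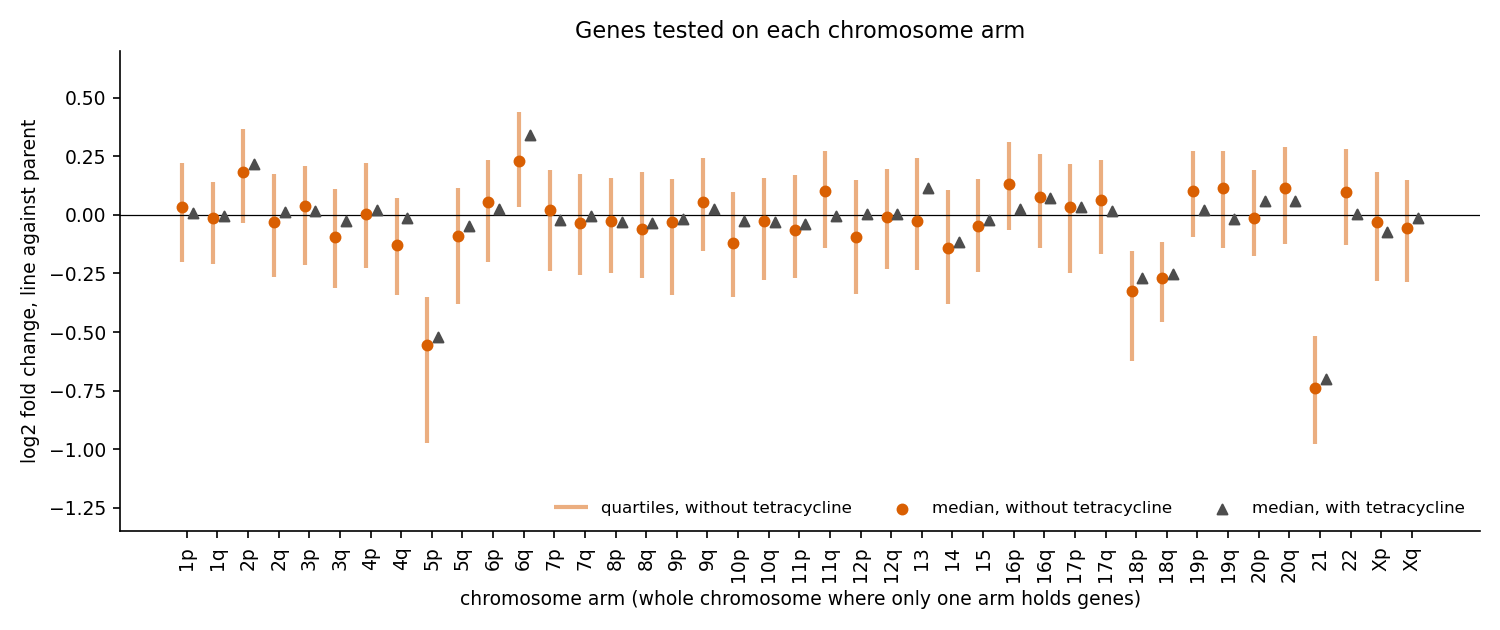
Median log2 fold change of the genes tested on each chromosome arm, line against parent, without tetracycline (orange circles, with the range between the quartiles as a bar) and with it (grey triangles). Chromosome 21 at -0.74 and -0.70 and the short arm of chromosome 5 at -0.55 and -0.52 stand lowest, both arms of chromosome 18 lie below 0, and the long arm of chromosome 6 and the short arm of chromosome 2 lie above it.

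On the short arm of chromosome 5, 94 genes were tested, 24 were called lower (25.5%) and 90 had negative log2 fold changes, with a median of -0.55 without and -0.52 with tetracycline. Relative to the parent's mean, the median over these genes was -0.63 in RPRD1B_FL 1 and -0.53 in RPRD1B_FL 2. NDUFS6, a subunit of respiratory complex I, was at 1075 and 1111 CPM in the parent and 512 and 436 CPM in the line (log2 fold change -1.21, SE 0.15, adjusted p = 5.1e-05, edgeR). NSUN2, an RNA cytosine methyltransferase, was at 699 and 713 against 322 and 338 CPM (-1.10), and HMGCS1, the synthase that begins the mevalonate pathway, at 524 and 441 against 210 and 230 CPM (-1.14). NDUFS6, NSUN2 and HMGCS1 were called in each of the 14 alternatives run.

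CCT5, another TRiC subunit, was at 965 and 980 against 601 and 611 CPM (-0.68), RPL37, a ribosomal protein, at 1911 and 1623 against 1153 and 1068 CPM (-0.67), and MARCH6, a ubiquitin ligase of the endoplasmic reticulum, at 192 and 190 against 88.1 and 126 CPM (-0.83). These 3 calls did not hold without RPRD1B_FL 1 (adjusted p = 0.151 for CCT5 and 0.376 for MARCH6) or without FLP 1 (0.237 for RPL37). BASP1, a growth cone protein, was lower by more, at 228 and 199 against 75.8 and 73.3 CPM (-1.51, SE 0.16, adjusted p = 5.38e-06, edgeR), and it was called in each of the 14 alternatives run. With 1 library left out, the number of called genes on chromosome 21 ranged from 9 to 35 and that on this arm from 8 to 23, while the medians ranged from -0.76 to -0.71 and from -0.66 to -0.55. The lowest counts came without RPRD1B_FL 1 for chromosome 21 and without FLP 1 for the arm.

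Medians over 15 neighbouring genes in chromosome order showed how these shifts lay along the chromosomes. The bounds of the stretches below were read from these medians at a threshold of 0.4 on the log2 scale, so their own medians and counts are descriptions. On chromosome 5 the low values did not stop at the centromere. They ran without a break over 137 tested genes from AC026740.1 to CCDC125 (675826 to 69332809, GRCh38), with a median of -0.62 without and -0.52 with tetracycline, 128 negative values and 28 genes called lower. The shares are 93.4% negative and 20.4% called lower, against 49.1% and 0.954% of all genes tested. The 11 short-arm genes outside this stretch were low too, with a median of -0.37 without and -0.39 with tetracycline and 10 negative values. The start of the stretch is thus not an edge of the shift. The lowest window, from MRPL36 to CMBL near the start of the chromosome, had a median of -1.18 without and -1.05 with tetracycline.

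The long-arm part of that stretch held 54 genes with a median of -0.60. Of these, 5 were called lower (9.26%, against 0.954% of all genes tested): LINC01033, GPBP1, NDUFAF2, SREK1 and MAST4. LINC01033, a long noncoding RNA, was at 18.2 and 15.5 CPM in the parent and 2.46 and 1.84 CPM in the line (-2.94, SE 0.39, adjusted p = 0.00011, edgeR). MAST4, a kinase associated with microtubules, was at 50.7 and 55.5 against 21.8 and 28.4 CPM (-1.09, adjusted p = 0.0117), and not called without RPRD1B_FL 1 (adjusted p = 0.24). The calls of GPBP1, NDUFAF2 and SREK1 were lost in 3, 2 and 2 of the 4 fits with 1 library left out (largest adjusted p = 0.343 without RPRD1B_FL 1, and 0.432 and 0.139 without FLP 1). The other 410 genes of the long arm had a median of -0.06 without and -0.02 with tetracycline, and 2 of them were called, VCAN and SPARC. So VCAN and SPARC, though on chromosome 5, lay outside the low stretch.

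On chromosome 21 every window of 15 genes had a negative median, from -1.001 (BACH1 to OLIG1) to -0.49, and the low values covered all 110 tested genes. On chromosome 13 a stretch of 34 genes from MTMR6 to RFC3 (25246201 to 33966558) was on the high side, with a median of 0.44 without and 0.54 with tetracycline, 29 positive values and 4 genes called higher. Its shares are 85.3% positive and 11.8% called higher, against 50.9% and 0.226% of all genes tested. The other 196 genes of chromosome 13 had a median of -0.07 without and 0.06 with tetracycline. Relative to the parent's mean the stretch stood at 0.35 in RPRD1B_FL 1 and 0.57 in RPRD1B_FL 2.

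The 4 called genes of that stretch were POLR1D, CDX2, POMP and SLC7A1. SLC7A1, a transporter of cationic amino acids, was at 66.0 and 76.8 CPM in the parent and 143 and 124 CPM in the line (0.90, SE 0.17, adjusted p = 0.00506, edgeR). POMP, an assembly factor of the proteasome, was at 372 and 344 against 527 and 548 CPM (0.59), and POLR1D, a subunit shared by RNA polymerases I and III, at 75.8 and 74.0 against 125 and 115 CPM (0.68). CDX2, a homeobox gene of the intestinal lineage, was at 86.0 and 84.0 against 130 and 136 CPM (0.64, adjusted p = 0.0483), with a log2 fold change of 0.61 with tetracycline. All 4 fits with 1 library left out lost the calls of POLR1D, CDX2 and POMP (largest adjusted p = 0.343, 0.257 and 0.204), and 2 lost that of SLC7A1 (0.115, without RPRD1B_FL 1).

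Smaller shifts were seen on other chromosomes. On chromosome 14 the 111 genes from the first one tested to CTAGE5 had a median of -0.36 without and -0.34 with tetracycline, with 98 negative values, against -0.04 for the 292 genes beyond. The lowest window of 15 genes on this chromosome lay in that farther part, from HIF1A to RAB15, with a median of -0.63 without and -0.18 with tetracycline. CEBPE lies within the first of these regions, and the next lowest gene of chromosome 14, AL356019.2, had a log2 fold change of -1.33. The 181 genes of chromosome 18 had a median of -0.27 without and -0.26 with tetracycline, with 157 negative values. Of these genes 2 were called lower, SALL3 and ANKRD12, a share of 1.105% that is near the 0.954% of all genes tested. RPRD1A lies on the long arm of this chromosome, whose 130 genes had a median of -0.27.

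The long arm of chromosome 6 had a median of 0.23 without and 0.34 with tetracycline over 282 genes, of which 225 were positive (6080 of 11948 over all genes) and 4 were called higher (1.42%, against 0.226% of all genes tested): SF3B5, REPS1, IGF2R and CGA. SF3B5, a splicing factor subunit, was at 1130 and 1272 CPM in the parent and 1994 and 1740 CPM in the line (0.64, SE 0.14, adjusted p = 0.0211, edgeR), and IGF2R, the receptor that clears insulin-like growth factor 2, at 46.7 and 50.5 against 92.7 and 88.4 CPM (0.90, adjusted p = 0.0112). Both calls were lost without RPRD1B_FL 1 and without FLP 1, with adjusted p of up to 0.335 for SF3B5 and 0.13 for IGF2R, and that of REPS1 in 3 of 4 such fits (up to 0.457). The short arm of chromosome 2 had a median of 0.18 without and 0.22 with tetracycline over 334 genes, 240 of them positive. Over all 11948 genes the median was 0.01, with quartiles at -0.25 and 0.21. Gene dosage was not measured, so fewer copies of a region and less RNA per copy cannot be told apart in these values.

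**Figure D5:**
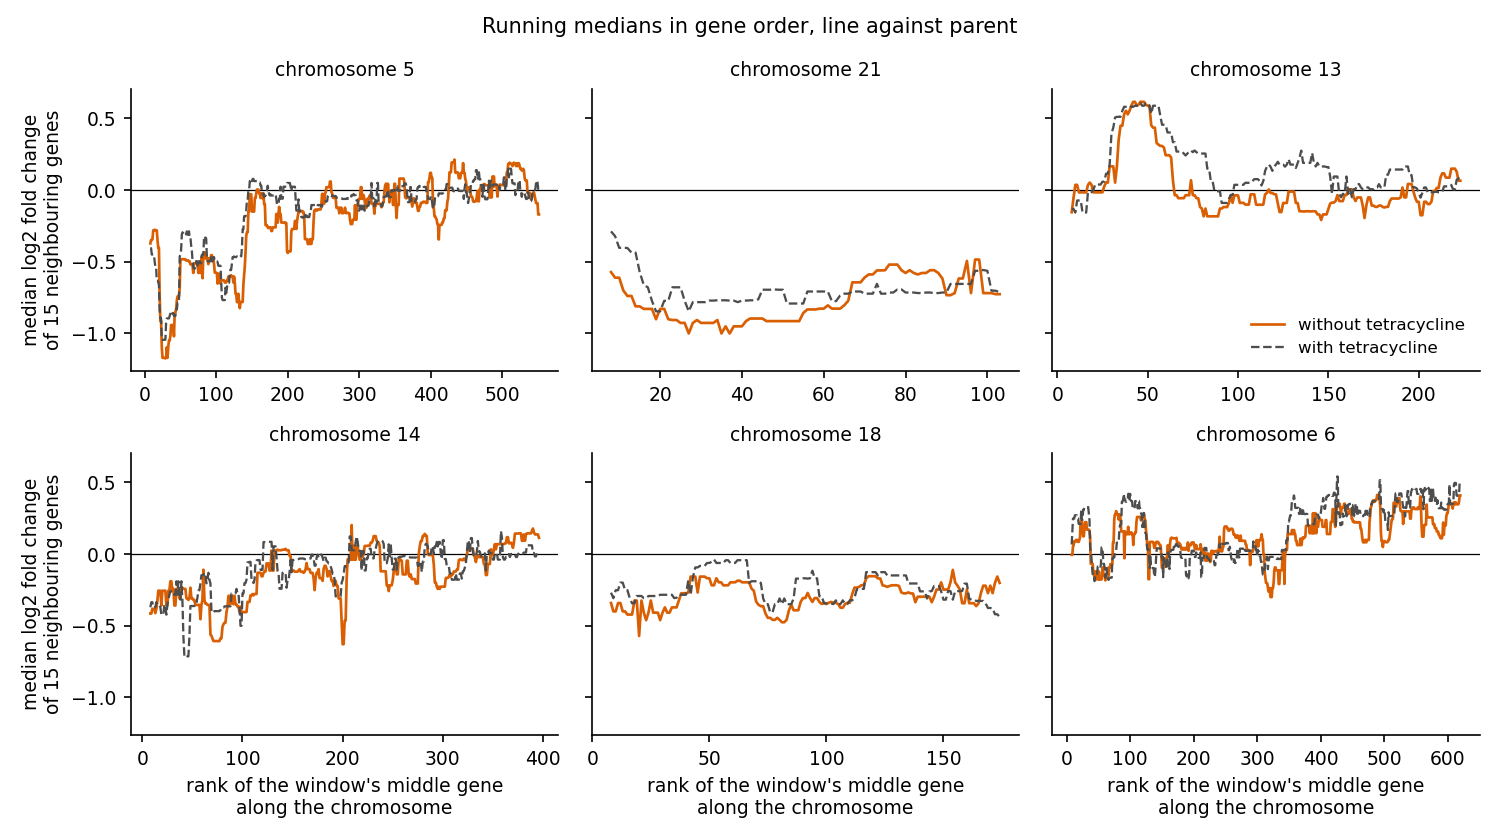
Running median of the log2 fold change over 15 neighbouring tested genes (vertical axis) by the rank of the middle gene along chromosomes 5, 21, 13, 14, 18 and 6 (horizontal axis), without tetracycline (orange line) and with it (dashed grey line). Both lines are low over the first part of chromosome 5 and over all of chromosome 21, raised in 1 stretch of chromosome 13, slightly low at the start of chromosome 14 and along chromosome 18, and raised over the last part of chromosome 6.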

How the data were processed

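Messenger RNA of Flp-In T-REx 293 lines was sequenced from its 3′ ends with QuantSeq REV libraries, per the labels' protocols. The authors deposited 1 table of raw counts per gene for each sample. The submitters' processing notes name FastQC, STAR, HTSeq, DESeq2 and the build GRCh38. Their versions, the gene annotation and the strand setting of the counting are not given in the sources used here. Rows that name no gene were left out. Relative to all reads in a table, 16.3 to 19.5% fell in no gene, 1.59 to 1.70% were ambiguous and 11.7 to 14.0% did not align uniquely in the 4 libraries. In the 2 HEK293T libraries 35.0 and 27.4% fell in no gene. Of 58138 gene names, 55130 matched 1 gene of GENCODE 29, 316 of them through a RefSeq synonym.

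The counts of all 8 Flp-In libraries were fitted together in edgeR 4.0.16 (R 4.3.3), with 1 coefficient per group, TMM scaling, a filter on low counts (minimum count 10, minimum total 15) and the quasi-likelihood test. Genes with a Benjamini-Hochberg adjusted p under 0.05 over all 11948 genes are called. The SE is that of the log2 fold change. Intervals of count ratios are exact at 95%, and these and the floor of 3 counts cover counting error only; whether reads carried molecular identifiers is not given in the sources used here. Counts simulated for 11739 genes of this comparison gave 63 of 98 genes changed by 1 on the log2 scale and 93 of 99 changed by 2, with 10 false calls. Alternatives were RLE factors, TMM without the genes of chromosome 21 and of the short arm of chromosome 5, DESeq2 1.42.0, other filters, the 2 groups alone, a replicate block, a GC correction and each library left out.

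Genes are named by these rules: the RPRD genes, the genes switched off or on, the 8 called genes with the largest changes in each direction whose libraries did not overlap and whose higher group had a mean of 10 CPM or more, up to 4 called genes per list or else the one with the smallest p, and the 6 most abundant called genes of chromosome 21 and of the short arm of chromosome 5. All other genes given with values were chosen after their values were seen. The comparison and the lists were chosen with earlier results of these data known.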

Additional observations from a re-analysis of the deposited data

How the results depend on the processing

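Of 74 called genes followed through the alternatives, 0 reversed and 18 were called under every one run. Of the genes not called, RPRD2 turned to a log2 fold change of 0.015 with the GC correction and 0.016 with GC correction and replicate block, and PCDH9, a protocadherin, ranged from -0.50 to 0.11 with 1 library left out. With 1 library left out, called genes ranged from 40 to 240, higher ones from 3 to 20, lower ones from 33 to 220, those on chromosome 21 from 9 to 35 and those on the short arm of chromosome 5 from 8 to 23, with medians from -0.76 to -0.71 and from -0.66 to -0.55. Genes switched off stayed at 4, those switched on ranged from 0 to 2, those called with tetracycline from 147 to 156 and those called in the interaction from 0 to 5. DESeq2 called 106 genes, 0 of them switched on, and 88 with tetracycline. Without a filter 292 genes were called (79 higher, 213 lower, 229 with tetracycline) and the median of chromosome 21 was -0.64. With a mean count of 50 or more 15 were higher, 0 were switched on, 79 were called with tetracycline, and that median was -0.77. It was -0.76 in a fit of the 2 groups alone. The GC correction gave 302 (94 higher, 208 lower, 258 with tetracycline). A minimum log2 change of 1 left 80 (11 higher, 69 lower, 21 on chromosome 21, 77 with tetracycline). Asking for 0 counts left 2 genes switched off and 0 on. Windows of 31 genes had lowest medians of -1.05 on chromosome 5 and -0.95 on chromosome 21. The cause of these shifts was not tested.

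The labels do not state that the replicate numbers pair the libraries. Deviations of same-numbered FLP and RPRD1B_FL libraries had a correlation of -0.27 over 8719 genes, those of FLP and RPRD1B_FL_TET -0.36, and those of RPRD1B_FL and RPRD1B_FL_TET 0.46. Same-numbered libraries of the line thus deviated in part alike, so its treated libraries may not be free of the deviations of the untreated ones. The reason was not tested. A replicate block on the numbers gave 126 called genes, and 320 (101 higher, 219 lower, 252 with tetracycline) together with the GC correction. A block with the numbers of the line crossed, chosen after seeing the data, gave 462 (164 higher, 298 lower, 262 with tetracycline).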

Other observations

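Further called genes, chosen after their values were seen, include 4 lower ones away from chromosome 21 and the short arm of chromosome 5 that encode channels or receptors. They are no tested group, and other such genes, RYR2 and IGF2R, were called higher. P2RX5, a cation channel opened by ATP, was at 33.9 and 42.4 CPM in the parent and 13.3 and 12.9 CPM in the line (log2 fold change -1.55, adjusted p = 0.000647, edgeR), was called in every alternative run, and had a log2 fold change of -2.51 with tetracycline. KCNMA1, a potassium channel opened by calcium and voltage, was at 19.3 and 19.4 against 7.37 and 5.53 CPM (-1.58, adjusted p = 0.00386), with -1.72 with tetracycline, and its adjusted p without RPRD1B_FL 2 was 0.0731. KCNJ12, an inwardly rectifying potassium channel, was at 10.6 and 12.8 against 4.21 and 3.32 CPM (-1.63, adjusted p = 0.0149) and was not called by DESeq2 (adjusted p = 0.0928) or in 3 of 4 fits with 1 library left out (up to 0.148). P2RY1, a receptor for ADP, was at 16.8 and 10.5 against 2.11 and 6.26 CPM (-1.68, adjusted p = 0.0416) and was not called by DESeq2 (adjusted p = 0.139) or without RPRD1B_FL 1 (0.52) or FLP 1.

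The calls of the nuclear RNAs MALAT1 and NEAT1 were lost without FLP 1 and also without RPRD1B_FL 1. MALAT1 had a log2 fold change of -1.29 (adjusted p = 0.0123, edgeR) that was -0.47 without FLP 1 (adjusted p = 0.66), and DESeq2 did not call it (adjusted p = 0.311). NEAT1 was at 166 and 71.3 CPM in the parent and 46.7 and 61.5 CPM in the line (-1.12, adjusted p = 0.0416), at -0.10 with tetracycline and at -0.40 without FLP 1 (adjusted p = 0.846). BORA, an activator of the mitotic kinase Aurora A, was at 16.8 and 14.1 against 3.86 and 2.95 CPM (-2.16, adjusted p = 0.00174), with the other-strand gene DIS3 overlapping it.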
